A study of Macaca mulatta with 9 samples.

Results

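Whole-blood RNA of rhesus monkeys (Macaca mulatta) that had received either of 2 kinds of extracellular vesicle was compared, as 1 group of 6 libraries, with the blood RNA of 3 animals that had received phosphate-buffered saline (PBS). These 9 libraries are all the libraries of the series. The genes described are those for which every one of the 6 vesicle libraries lay above, or every one lay below, all 3 PBS libraries. Of 24371 genes in the table, 371 lay above and 301 below by this rule. Of these, 151 and 208 passed a filter on low values (a scaled value of at least 1 in 3 or more libraries), which left 9812 genes for testing. The genes with no overlap were thus 1.54% (above) and 2.12% (below) of the tested genes, 359 in all. A gene could pass the filter through the libraries of either side alone. If the group labels played no part, 6 and 3 libraries would lie apart in a share of 0.0238 of genes, both directions together. The part of chance in these counts was not tested.

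The series title gives ABPC as antler blastema progenitor cells, and the other vesicle source is labelled FBMSC, which the labels do not spell out. All 9 animals are labelled wild type (WT), 3 were injected with PBS (also described as "Old"), 3 with FBMSC vesicles and 3 with ABPC vesicles, and the tissue is whole blood in each case. Dose, number of injections, sampling time, age and sex are not in the labels, and nothing in them says whether the vesicle animals were also old. Each group is 3 animals with 1 library each, so the p-values rest on the spread between animals. Where the vesicle types are pooled, that spread also holds any difference between FBMSC and ABPC. The p-values, standard errors and vesicle standard deviations of the pooled comparison thus mix animal spread with the difference between vesicle types.

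Extracellular vesicles are membrane-bound particles that cells release and that can carry protein and RNA to other cells. Whole blood holds red cells, platelets and several classes of white cell. The youngest red cells, reticulocytes, have lost the nucleus but keep a store of RNA, mostly globin messenger RNA, which is degraded as they mature. Ribosomal protein and mitochondrial transcripts are among the other RNAs of these cells, while lymphocytes, monocytes and granulocytes supply most of the transcripts of immunity and inflammation.

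The adult globin genes HBB, HBA and HBA1, which encode the chains of hemoglobin, took a smaller share of the TPM-scale values (corrected for gene length and summing to 1000000 in each library) in every vesicle library than in any PBS library. Their share was 92.7%, 88.2% and 88.2% in the PBS libraries, and ranged from 70.9% through a median of 82.4% to 87.6% in the vesicle libraries. The means were 89.7% ± 2.57 (SD, n = 3) with PBS and 80.2% ± 6.03 (SD, n = 6) with vesicles, a difference of -9.55 percentage points (exact two-sided permutation test, p = 0.0238, the smallest that 6 against 3 can give). FBMSC replicate 3 was the vesicle library nearest to PBS, and ABPC replicate 2 the farthest. Per vesicle type the difference from the same PBS libraries was -5.54 points for FBMSC and -13.6 points for ABPC, each at an exact permutation p of 0.1, the smallest that 3 against 3 allows. With any 1 PBS library left out the groups stayed apart at -8.07 to -10.3 points, where the smallest possible exact permutation p is 0.0714.

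The part of the library outside a list of 62 erythroid genes was larger in the same libraries. The list includes HBB, HBA and HBA1, so this share is nearly the complement of the globin share. Its test is therefore not a separate result. It took 6.72%, 10.9% and 11.2% of the values with PBS and from 11.8% to 28.5% with vesicles, so the groups did not overlap. Mean shares were 9.59% ± 2.49 (SD, n = 3) and 19.2% ± 6.03 (SD, n = 6), a ratio of 1.998 (exact two-sided permutation test, p = 0.0238). Total recovered reads did not separate the groups, at 12.8 ± 1.43 M with PBS and 12.7 ± 0.656 M with vesicles (M, 1000000 reads) (exact permutation p = 0.738). Reads outside the erythroid list were 4.23 ± 1.13 M with PBS and 6.85 ± 1.03 M with vesicles, 1.62 times as many (exact permutation p = 0.0238). With totals this alike, that count largely restates the difference in share. Transcripts outside the erythroid list were thus sampled more deeply in the vesicle libraries, and the part of this depth in the results below was not tested. In bulk blood, fewer cells of a type and less RNA per cell cannot be told apart.

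**Figure D1:**
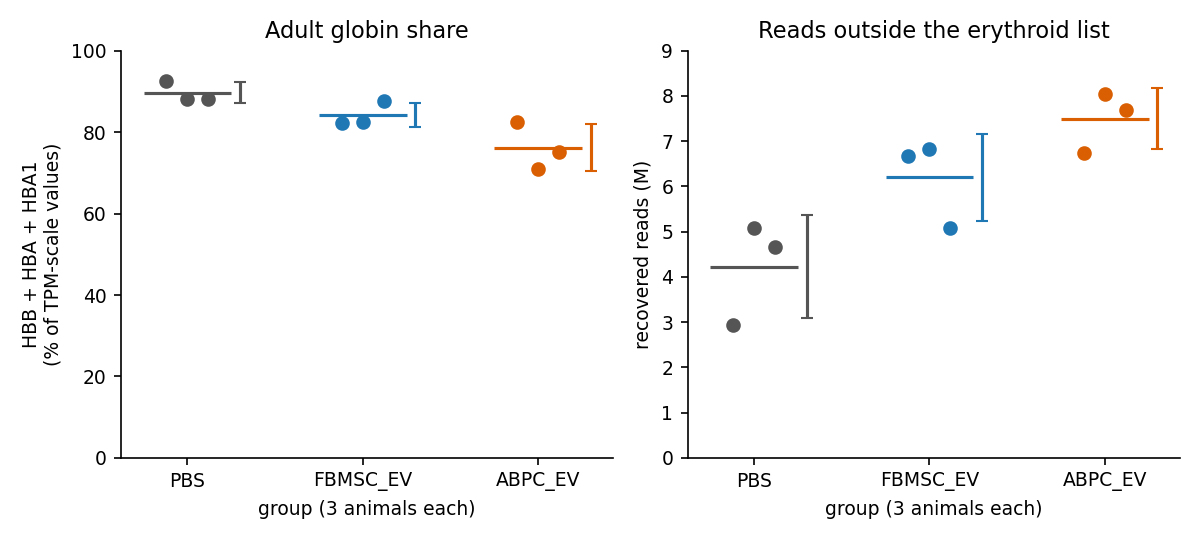
Adult globin share of the TPM-scale values (left, in percent) and recovered reads outside the erythroid list (right, in M) in each library, with the group mean as a line and the SD as a bar. The 3 PBS libraries sit above all 6 vesicle libraries on the left, from 88.2% to 92.7% against 70.9% to 87.6%, and FBMSC lies between PBS and ABPC in mean on both panels.

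Because of this difference in composition, the values were scaled before genes were compared: each library was divided by the median ratio of its genes to a common reference, over the 13350 genes above 0 in all 9 libraries. The factors were 0.330, 0.470 and 0.767 for PBS and 0.957 to 2.52 for vesicles. After scaling the all-gene median difference was -0.01 on the log2(value + 1) scale, against 1.06 without scaling. Every direction below is thus relative to the typical gene. On the deposited scale, of the 208 genes below PBS 30 still had a negative difference and 3 (HBG2, LOC114673003 and LOC114670758) still showed no overlap, whereas all 151 genes above PBS kept no overlap.

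Across the 9812 genes, limma (Benjamini-Hochberg adjusted p under 0.05) called 1 gene, which is 0.0102% of those tested, and it was lower with vesicles. At an unadjusted p under 0.05 there were 298 genes higher (3.04%) and 529 lower (5.39%). The 1 called gene was LOC114673003, a long noncoding RNA lying inside the span of WIPI1 in the RefSeq table of assembly T2T-MMU8v2.0. Its scaled values were 14.1, 5.26 and 12.1 with PBS and 0.648, 0.984 and 1.68 (lowest, median, highest) with vesicles. All 6 vesicle libraries lay under the lowest PBS library, whichever vesicle type they came from. It fell by 2.39 ± 0.27 (SE) on the log2 scale (limma adjusted p = 0.0402), from 10.5 ± 4.65 (SD, n = 3) to 1.09 ± 0.440 (SD, n = 6). The call rests on few reads, 14 to 41 per PBS library and 3 to 8 per vesicle library, and it was lost under several alternatives, with adjusted p = 0.149 without the low-value filter, 0.0840 with the replicate number as a block and 0.268 in limma-voom on recovered reads. WIPI1 itself, an autophagy protein that binds phosphoinositides, was at 17.0, 21.6 and 20.2 with PBS and at 6.32, 8.95 and 24.8 with vesicles, so its groups overlapped. The labels state no strand-specific counting, and reads of such overlapping genes cannot then be told apart.

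Next in the ordering were 4 other genes with LOC numbers at adjusted p under 0.1, named after their values were seen. The snoRNA gene LOC114673615, inside the span of TPT1, was at 0, 0.758 and 0.595 with PBS and at 2.93, 3.78 and 6.90 with vesicles (log2 difference 1.87 ± 0.25 SE, limma adjusted p = 0.0760). Another snoRNA gene, LOC114675330 inside CAPZA1, was at 2.95, 0.980 and 3.08 with PBS and at 7.73, 10.7 and 13.9 with vesicles (1.86 ± 0.27 SE, adjusted p = 0.0934). Small nucleolar RNAs guide chemical modification of ribosomal and other RNAs, and both of these sit within genes whose own reads could overlap them. LOC114670758, which is not named in the RefSeq table used, was at 36.3, 25.1 and 21.0 with PBS against 0, 1.04 and 5.95 with vesicles (-3.50 ± 0.52 SE, adjusted p = 0.0934). The pseudogene LOC706718 lay at 3.96, 2.90 and 3.26 with PBS and at 1.22, 1.45 and 1.66 with vesicles (-0.84 ± 0.13 SE, adjusted p = 0.0934). For these 4 genes neither vesicle type reached the PBS range. The snoRNA values rest on few reads, 0 to 1 and 1 to 4 per PBS library and 7 to 16 and 13 to 32 per vesicle library. LOC114673615 passed the low-value filter through vesicle libraries alone.

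The widest difference among all 359 genes belonged to HBG2, a fetal gamma-globin gene that is nearly silent in adult red cells. With PBS it was at 981, 161 and 1641, and with vesicles at 3.15, 23.8 and 35.7. Every vesicle library lay well below the lowest PBS library, and the PBS libraries themselves spread widely. The mean with PBS was 44.6 times that with vesicles, 928 ± 742 (SD, n = 3) against 20.8 ± 13.2 (SD, n = 6). Its log2 difference was -5.23 ± 0.84 (SE) with a limma adjusted p of 0.127, which does not pass. On the deposited scale the difference was -3.73 and the adjusted p was 6.55e-08, so HBG2 lay below PBS on either scale. Mean levels were 27.8 with FBMSC and 13.8 with ABPC vesicles. Gamma-globin genes are near-identical copies, so reads may be split between them.

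Erythroid genes as a list leaned below PBS. Of 52 tested, 51 had a negative log2 difference and TFRC, the transferrin receptor, did not, with a list median of -0.93 against -0.01 over all genes. No overlap was found for 8, all below PBS and among them HBB, HBA, HBG2, CA1, STRADB, FBXO7 and EPOR, which is 15.4% beside 2.12% of all genes, and 24 had an unadjusted p under 0.05. None passed adjustment. The summed scaled value of the list was 1158340 to 2824070 with PBS and 301400 to 921053 with vesicles. Relative to the all-gene median the list stayed negative on the deposited scale too, at -0.61, where the median of its members' own differences was above 0.

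HBB had a mean 3.20 times higher with PBS (log2 difference -1.73 ± 0.51 SE, limma adjusted p = 0.443) and HBA 3.42 times higher (-1.78 ± 0.48 SE, adjusted p = 0.438), both without overlap. HBA1 overlapped between the groups, with a difference of -1.26. On the deposited scale the differences were -0.17 for HBB, -0.21 for HBA and 0.31 for HBA1, so the size of these folds rests mostly on the scaling. The alpha-globin copies share most of their sequence, so how reads were divided between HBA and HBA1 is uncertain. CA1, a carbonic anhydrase of red cells, was at 252, 500 and 233 with PBS and 35.8, 69.5 and 199.6 with vesicles, with a mean 3.57 times higher with PBS. EPOR, the erythropoietin receptor, was at 26.8, 8.46 and 4.84 with PBS and 1.53, 3.01 and 3.96 with vesicles (-1.63 ± 0.42 SE). The PBS side of EPOR was led by replicate 1, the library with the highest globin share. STRADB, a pseudokinase with high transcript levels in reticulocytes, was at 154, 125 and 63.6 against 24.2, 43.3 and 56.2.

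The list of ubiquitin and maturation genes of reticulocytes leaned the same way, with 24 of 28 below 0 and a median of -0.60. It is not separate from the erythroid list, which also holds FBXO7, UBB, TRIM58, TRIM10, MKRN1 and BNIP3L. FBXO7, an adaptor of a ubiquitin ligase linked to red-cell maturation, was at 447, 244 and 280 with PBS and 65.4, 135 and 228 with vesicles (-1.29 ± 0.40 SE). RNF187, a ubiquitin ligase named after its values were seen, was at 13.7, 12.5 and 10.5 against 7.88, 8.98 and 10.3. These 2 were the members with no overlap, 7.14% of those tested beside 2.12% of all genes, and FBXO7 is already counted among the erythroid genes.

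Among genes with symbols and a median of at least 5 on the higher side, 108 lay below PBS and 46 above, and the 12 of lowest p on either side were taken. PLGRKT, a plasminogen receptor, was at 7.29, 7.50 and 5.75 with PBS and 3.18, 3.61 and 4.79 with vesicles. FAM89B was at 18.4, 16.7 and 28.5 against 9.15, 10.5 and 12.5. C1QBP, a mainly mitochondrial protein that also binds complement C1q, was at 29.5, 39.6 and 22.3 against 7.90, 13.5 and 17.6. In each of these 3 genes the vesicle values were well below the PBS values, at ratios of means of 1.83, 1.96 and 2.30.

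SERF2, a small protein that promotes aggregation of other proteins in model systems, had the widest ratio of this group after HBG2 and ELOB. Its PBS values were 477, 330 and 236 and its vesicle values 79.6, 117 and 170 (log2 difference -1.51 ± 0.35 SE, limma adjusted p = 0.401). ELOB, the elongin B subunit shared by transcription elongation and ubiquitin ligase complexes, was at 264, 187 and 104 against 36.4, 61.0 and 92.2 (-1.55 ± 0.37 SE). WDR83OS, a small membrane protein of the endoplasmic reticulum, was at 226, 156 and 91.7 against 49.3, 58.1 and 88.5. In SERF2, ELOB, STRADB, WDR83OS and NDUFA8 all 3 ABPC libraries also lay below all 3 FBMSC libraries. The remaining members of the 12, with log2 differences of -0.69 to -1.08, were MRPL40 of the mitochondrial ribosome, SAT2, PKIG, an inhibitor of protein kinase A, and NDUFA8 of respiratory complex I. Apart from HBG2 their adjusted p lay between 0.328 and 0.401.

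**Figure D2:**
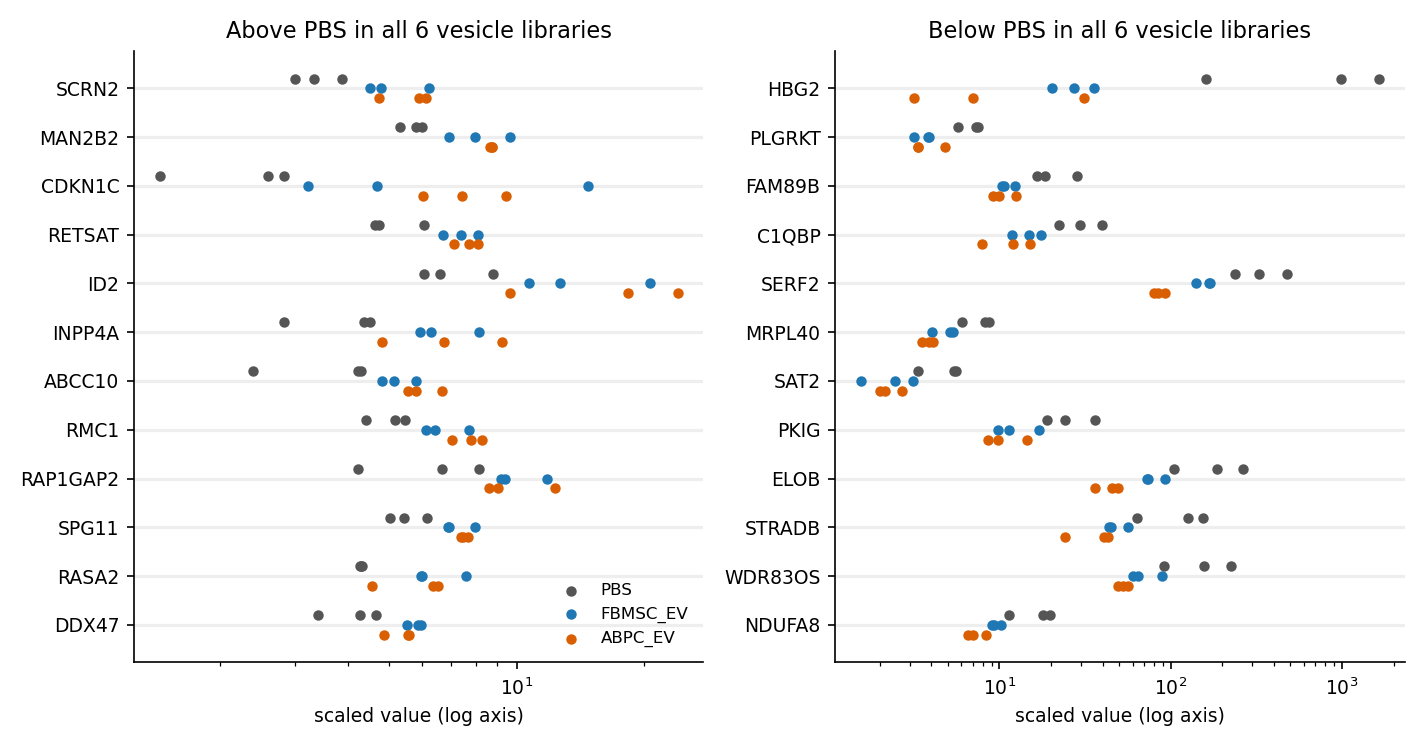
Scaled values (log axis) of the 12 leading genes of each direction by p, 1 point per library and 1 colour per group. No vesicle point reaches into the PBS range in any of the 24, as the choice of genes fixes; HBG2 has the widest gap, with 161 or more in PBS and 35.7 or less with vesicles.

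Ribosomal protein genes, whose products form the cytosolic ribosome with its RNA, held the largest number of members below PBS. Of 75 tested, 73 had a negative difference, with a median of -0.57, and 16 showed no overlap, all below (21.3%, beside 2.12% of all genes); 20 had an unadjusted p under 0.05 and none passed adjustment. RPL12 was at 358, 334 and 205 with PBS and 82.3, 131 and 179 with vesicles (log2 difference -1.25 ± 0.32 SE). RPL38 was at 140, 115 and 77.8 against 32.7, 60.5 and 71.0. Both, which are proteins of the large ribosomal subunit, were higher in mean with PBS, by ratios of 2.37 and 2.02. Relative to the all-gene median the list was at -0.56 after scaling but at -0.09 on the deposited scale. Ribosomal protein genes have many processed pseudogenes, so their counts are uncertain where reads could be shared.

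Nuclear genes of oxidative phosphorylation, the respiratory chain and ATP synthase of mitochondria, had 53 of 67 members below 0 and a median of -0.23, and this direction turned to 0.06 on the deposited scale relative to all genes. No overlap was seen for 11 (16.4%, beside 2.12% of all genes), all below PBS. Complex I subunit NDUFA8 was at 19.8, 18.0 and 11.3 with PBS and 6.53, 8.71 and 10.2 with vesicles. NDUFA3 was at 12.1, 7.83 and 3.608 against 1.91, 2.84 and 3.602, so its lowest PBS library nearly met the vesicle range. ATP5F1E, the epsilon subunit of ATP synthase, was at 239, 257 and 177 against 24.5, 75.6 and 143 (-1.70 ± 0.49 SE). NDUFB4 differed by -0.62 ± 0.18 (SE). Of the 11 tested genes of the mitochondrial genome, which encodes the core of the same chain, 9 were below 0 (median -0.44) and none was without overlap. COX3, the member with the widest difference (-1.80), was at 35.7, 4.08 and 18.1 against 0.300, 3.81 and 8.95. It had 33 to 192 reads per PBS library and 4 to 210 per vesicle library. CYTB and ATP6 were above 0, at 0.41 and 0.49. The proteasome list had 1 of 39 without overlap (2.56%), close to the 2.12% of all genes: PSMC2, an ATPase of its regulatory cap, at 21.2, 24.8 and 19.7 against 7.18, 12.6 and 16.04, and its median of -0.09 turned to 0.22 on the deposited scale relative to all genes. In the antioxidant list 29 of 33 were below 0 (median -0.27) and none was without overlap, PRDX6 included, a peroxiredoxin with a log2 difference of -1.56.

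The genes above PBS in all 6 vesicle libraries showed smaller differences on the log2(value + 1) scale than those below, and had lower levels, with a median scaled value of 2.52 against 8.01, which this scale compresses more. Their median absolute log2 difference was 0.41 and 15 of 151 exceeded 1, whereas the genes below PBS had a median of 0.79 and 70 of 208 were under -1. CDKN1C, an inhibitor of cyclin-dependent kinases, was at 2.60, 1.44 and 2.83 with PBS and 3.22, 6.73 and 14.8 with vesicles (log2 difference 1.28 ± 0.36 SE, limma adjusted p = 0.438). ID2, a helix-loop-helix inhibitor of lymphocyte and myeloid transcription factors, was at 6.05, 8.81 and 6.59 against 9.66, 15.4 and 23.9 (SE of the log2 difference 0.29, adjusted p = 0.438). Both had means more than doubled with vesicles, at ratios of 3.31 and 2.23. The FBMSC values of CDKN1C were uneven, at 3.22, 14.8 and 4.70, and the ABPC values were 6.02, 9.45 and 7.44.

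The other 10 of the upper 12 differed by 0.36 to 0.68 on the log2 scale. MAN2B2, a lysosomal mannosidase, was at 5.31, 6.0 and 5.78 with PBS and 6.92, 8.70 and 9.62 with vesicles. SCRN2 was at 3.88, 3.32 and 3.0 against 4.52, 5.35 and 6.21. INPP4A, a phosphatase that acts on phosphoinositides, was at 4.51, 2.83 and 4.36 against 4.81, 6.52 and 9.25. Among the rest were RETSAT, a retinol saturase, RMC1 of the complex that activates RAB7, SPG11, which acts in lysosome recycling, RAP1GAP2 and RASA2, which inactivate small GTPases, the transporter ABCC10 and the RNA helicase DDX47. All 12 kept a positive difference relative to the all-gene median on each scaling tried, and their adjusted p lay between 0.438 and 0.498.

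Of the inflammation and chemokine list, 5 of 28 members lay above PBS without overlap (17.9%, beside 1.54% of all genes), though 10 of the 28 had negative differences and the median was 0.13, or -0.10 relative to all genes without PBS replicate 3. IL18R1 and IL18RAP encode the 2 chains of the interleukin-18 receptor. IL18R1 was at 0.355, 0.215 and 0.455 with PBS and 0.589, 1.23 and 1.80 with vesicles (log2 difference 0.70 ± 0.21 SE, limma adjusted p = 0.447). IL18RAP was at 0.486, 0.610 and 0.254 against 0.767, 1.07 and 2.64 (0.71 ± 0.24 SE, adjusted p = 0.490). Both chains were higher in mean with vesicles, 3.58 and 3.21 times, from levels under 1 in every PBS library. They passed the low-value filter through vesicle libraries alone, as did CCL3 below, so the 17.9% leans in part on the filter itself.

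ICAM1, an adhesion ligand of leukocyte integrins, was at 1.27, 1.27 and 1.47 with PBS and 1.61, 2.36 and 3.37 with vesicles (0.54 ± 0.17 SE, adjusted p = 0.447). CCL3, a chemokine of activated myeloid and cytotoxic cells, was listed at 0, 0.348 and 0 against 0.665, 1.09 and 5.82. That is 0 or 1 read per PBS library and 3 to 40 per vesicle library, so no fold is given. NFKBIZ, a nuclear regulator of NF-kB targets named after its values were seen, was at 4.98, 5.47 and 5.08 against 5.84, 7.09 and 8.24.

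Cytotoxic and natural killer cell genes leaned above PBS, with 26 of 31 positive and a median of 0.46, the highest of the 31 lists. Of them 2 showed no overlap (6.45%, beside 1.54% of all genes) and 7 of the 31 were higher at an unadjusted p under 0.05 (3.04% of all genes). EOMES, a transcription factor of natural killer and memory T cells, was at 1.72, 2.16 and 1.97 with PBS and 2.64, 3.43 and 5.80 with vesicles (0.63 ± 0.19 SE, limma adjusted p = 0.447). KLRG1, an inhibitory receptor of the same cells named after its values were seen, was at 2.004, 1.83 and 0.987 against 2.015, 3.64 and 16.02, so FBMSC replicate 1 was all but level with PBS. The summed value of the list overlapped between the groups, at 374.8 to 980.3 with PBS and 570.0 to 1240.5 with vesicles. On the deposited scale relative to all genes the list median was 0.51.

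T cell genes had 26 of 34 positive (median 0.23), with RORA, a nuclear receptor of helper T cells and innate lymphoid cells, the 1 member without overlap (2.94%, beside 1.54% of all genes): 0.718, 0.682 and 0.864 with PBS against 0.967, 1.93 and 5.43. RORA was under 1 in every PBS library and passed the low-value filter through vesicle libraries alone. The widest difference of the T cell list ran the other way, in CCR7, the homing receptor of naive lymphocytes, at 20.5, 30.5 and 20.1 with PBS against 5.43, 10.9 and 33.7 (-0.87 ± 0.44 SE, limma adjusted p = 0.638). Of the interferon-stimulated genes, 31 of 40 were positive (median 0.28) and none was without overlap. Their median ABPC minus FBMSC difference was -0.76, wider than the pooled median. CXCL10, a chemokine that interferon gamma induces, was at 1.47, 0.327 and 1.80 against 1.25, 3.28 and 7.38. Monocyte genes had 15 of 25 positive (median 0.15) and none without overlap, CX3CR1, a chemokine receptor of patrolling monocytes and cytotoxic cells, included at 8.68, 23.4 and 13.7 against 17.2, 34.5 and 68.4. Eosinophil and basophil genes had 8 of 12 positive and none without overlap, with a list median of 0.20 that was -0.02 on the deposited scale relative to all genes. They were led by the eotaxin receptor CCR3, which overlapped at 14.3, 4.91 and 2.71 with PBS against 8.05, 10.7 and 15.5.

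B cell genes leaned the other way, with 22 of 25 negative and a median of -0.47. FCRLA, an Fc receptor-like protein inside B cells, was the 1 member without overlap (1 of 25, beside 2.12% of all genes), at 7.69, 9.0 and 10.7 with PBS and 1.67, 3.77 and 6.83 with vesicles (-1.14 ± 0.37 SE, limma adjusted p = 0.465). In this gene the ABPC mean of 5.18 lay nearer to PBS than the FBMSC mean of 2.88. JCHAIN, the joining chain of secreted antibody, overlapped at 14.0, 17.2 and 28.2 against 5.05, 9.95 and 18.7, and 10 of 15 plasma cell genes were negative. Platelet and megakaryocyte genes had 22 of 29 negative (median -0.33), and JAM3, a junctional adhesion molecule, was the 1 without overlap (3.45%, beside 2.12% of all genes) at 1.40, 1.93 and 1.54 against 0.274, 0.592 and 1.29. Neutrophil genes had 23 of 29 negative (median -0.26, turning to 0.09 on the deposited scale relative to all genes) with none without overlap, and their summed value ranged from 1504.6 to 4540.5 with PBS and 1108.5 to 6028.2 with vesicles. Every cell-type list had members at measurable levels in these libraries, and no member found in the table was at 0 in all 9.

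**Figure D3:**
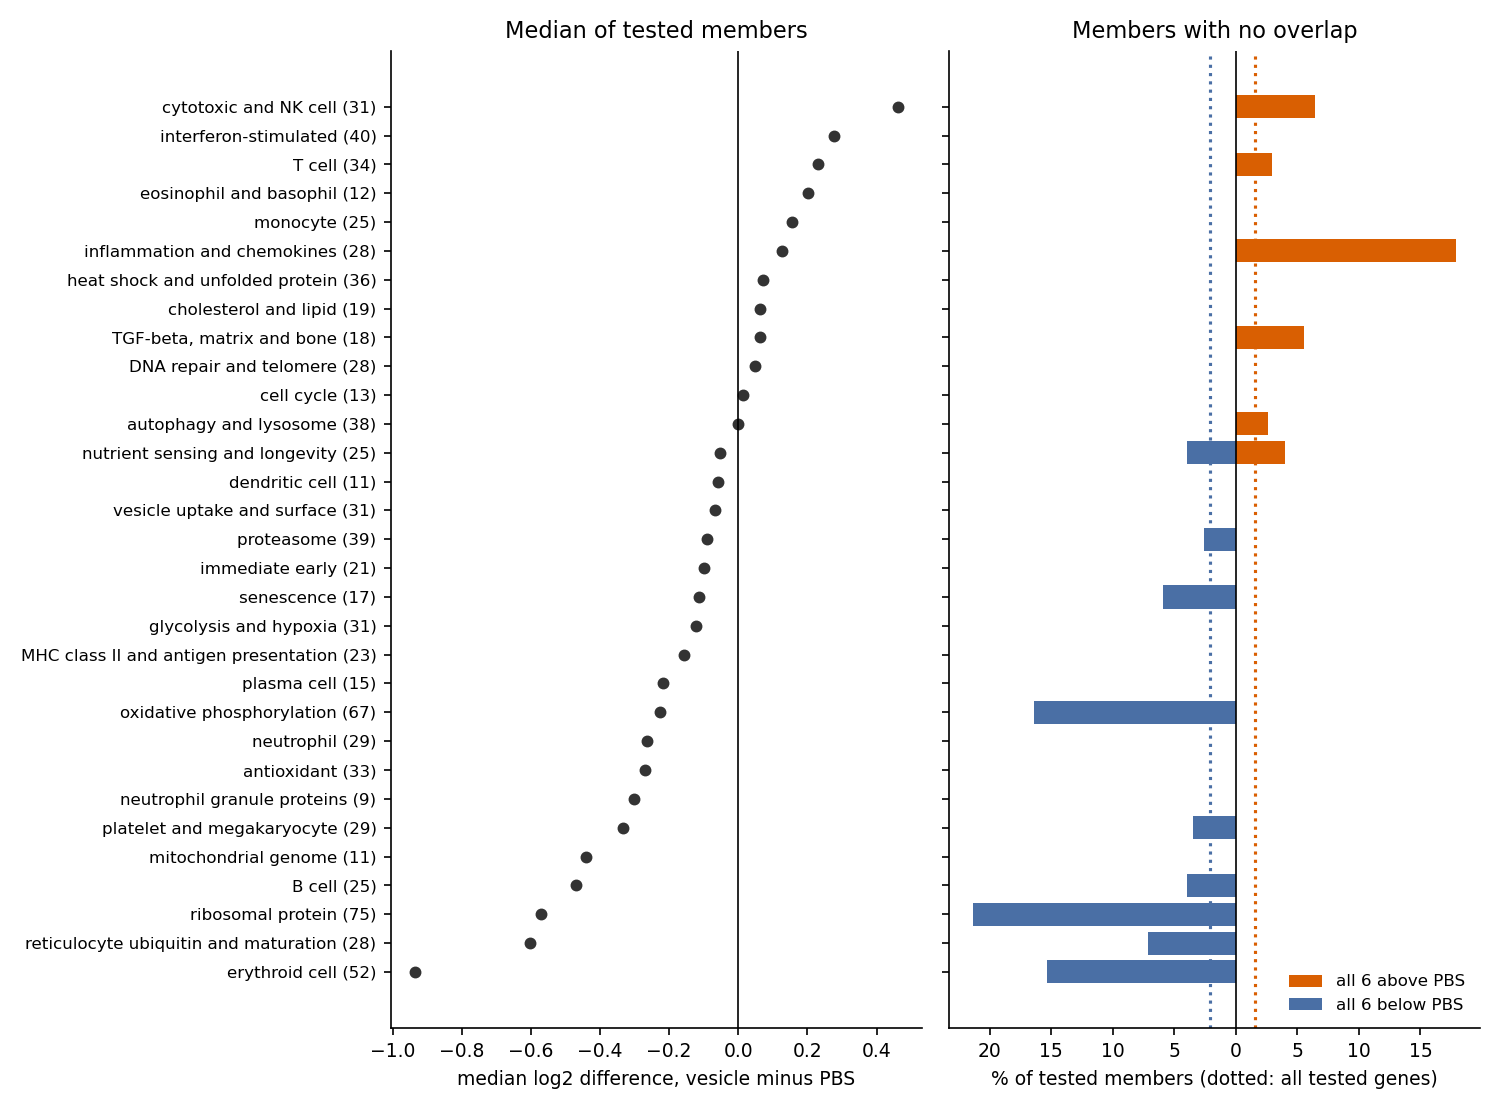
Median log2 difference of the tested members of each of 31 gene lists (left) and the percent of them without overlap, above PBS to the right and below PBS to the left (right panel, dotted lines at 1.54% and 2.12% for all tested genes); the number tested is in parentheses. Erythroid genes have the lowest median, -0.93, and cytotoxic and NK genes the highest, 0.46.

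In the remaining lists, neutrophil granule genes apart, the medians lay near 0, while single members differed more. NBN, a DNA repair protein, was at 171, 121 and 62.7 with PBS and 9.73, 33.5 and 64.5 with vesicles, a log2 difference of -1.84 ± 0.52 (SE) with a limma adjusted p of 0.438 and a slight overlap. RAB5A, a GTPase of early endosomes, overlapped too, at 43.1, 26.7 and 21.4 against 8.27, 11.8 and 25.5 (-1.10 ± 0.33 SE, adjusted p = 0.443). Neither passed adjustment. The nutrient-sensing list had 1 of 25 genes without overlap on each side (4%, beside 1.54% of all genes above and 2.12% below). MTOR, the kinase of the growth pathway, was at 1.497, 1.38 and 1.69 with PBS and 1.95, 2.29 and 2.91 with vesicles. AKT2, a kinase upstream of it named after its values were seen, was at 15.0, 13.4 and 13.3 against 8.17, 10.2 and 12.5. HMGB1, a chromatin protein in the senescence list, was at 35.1, 24.1 and 24.8 against 10.7, 20.2 and 21.7. CTSL, a lysosomal protease named after its values were seen, was the 1 of 38 autophagy and lysosome genes without overlap (2.63%, beside 1.54% of all genes), at 1.16, 1.18 and 0.557 against 1.27, 1.49 and 1.95. Heat shock, immediate early, MHC class II, DNA repair, cell cycle, glycolysis, cholesterol and vesicle uptake genes had no member without overlap, and their medians lay between -0.16 and 0.07. Dendritic cell genes (median -0.06) and neutrophil granule genes (-0.30) had none either. ID2 was the 1 of 18 TGF-beta, matrix and bone genes without overlap (5.56%, beside 1.54% of all genes). Counts of 1 gene in a list this small say nothing about the list. In all, 11 of the 151 genes above PBS and 41 of the 208 below belonged to any list, against 858 of 9812 tested.

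Gene length was a property that the selection did not use, and it differed between the sides. The genes below PBS had a median recovered length of 1275 bases and those above PBS 3812.5 bases, against 2879 over all tested genes. Under 1000 bases were 82 of the 208 genes below PBS (39.4%) and 10.6% of those above, against 12.3% of all. Outside the erythroid, ribosomal and oxidative phosphorylation lists the 173 remaining genes below PBS still had a median of 1422 bases. Across 4 equal bins of tested genes from shortest to longest, 5.18%, 1.79%, 0.816% and 0.693% lay below PBS and 1.22%, 0.938%, 1.59% and 2.36% above, and the median log2 difference of the bins ran from -0.15 through -0.04 and 0.01 to 0.08. Annotated pseudogenes made up 22 of the 208 genes below PBS (10.6%), 2 of the 151 above (1.32%) and 208 of all 9812 (2.12%). The part of library preparation or RNA quality in the relation with length was not tested.

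**Figure D4:**
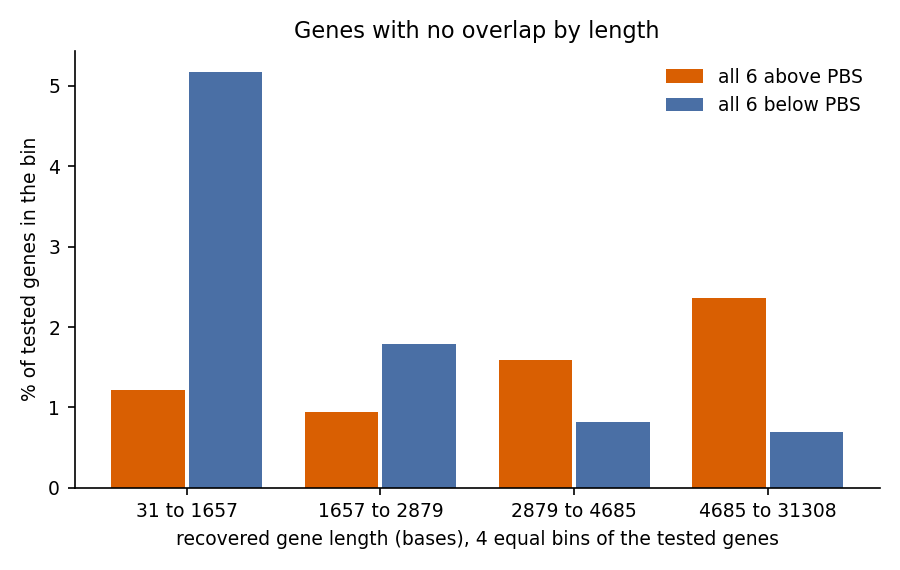
Percent of tested genes with no overlap, in 4 equal bins of recovered gene length (bases), above PBS and below PBS. The share below PBS is 5.18% in the shortest bin and 0.693% in the longest, while the share above PBS is 2.36% in the longest.

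The 2 vesicle types were pooled here, and the difference between them comes from the same 6 libraries that the rule used. It is thus no independent check of the selected genes. The scaling factors were 0.957 to 1.21 with FBMSC and 1.52 to 2.52 with ABPC, and their part in the order of the 2 types was not tested. Between ABPC and FBMSC limma called 0 genes (533 at an unadjusted p under 0.05), and 359 (3.66%) and 705 (7.19%) of tested genes lay wholly above or below in ABPC. Among the genes below PBS, the ABPC libraries lay wholly below the FBMSC libraries in 41 of 208 (19.7%). ABPC was lower in mean log2 value in 165 of the 208, beside 5352 of all 9812 tested genes. The median ABPC minus FBMSC difference of the genes below PBS was -0.23, against -0.03 over all genes. Among the genes above PBS the ABPC libraries lay wholly above in 7 of 151 (4.64%) and the median difference was 0.03. The rule fixes where each vesicle type lies against PBS, but not the order of the 2 types.

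Of the named candidates, OSBP, an oxysterol-binding protein, was the 1 of 46 genes above PBS with a further step to ABPC, at 3.94, 3.59 and 4.09 with PBS, a mean of 4.55 with FBMSC and 5.41 with ABPC. Below PBS 30 of 108 showed such a step, and over all tested genes ABPC lay wholly above FBMSC in 3.66% and wholly below in 7.19%. SERF2 had means of 347, 159 and 85.6 in PBS, FBMSC and ABPC, and ELOB 185, 79.5 and 43.7. CA1 and ATP5F1E showed the same order, at 328, 139 and 45.2 and at 224, 113 and 43.5. PLGRKT, SAT2 and FAM89B, by contrast, had near-equal means in both vesicle types, at 3.64 and 3.83, 2.38 and 2.28, and 11.1 and 10.5. Over the erythroid list the median ABPC minus FBMSC difference was -0.95, beside a pooled difference from PBS of -0.93. For other lists it was -0.76 (interferon-stimulated), -0.55 (neutrophil), -0.52 (monocyte), 0.41 (T cell), 0.43 (B cell), 0.38 (platelet) and -0.03 (cytotoxic and NK). Their pooled medians, in the same order, were 0.28, -0.26, 0.15, 0.23, -0.47, -0.33 and 0.46. Except for B cell and cytotoxic genes, the 2 types thus differed by more than the pooled lean.

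**Figure D5:**
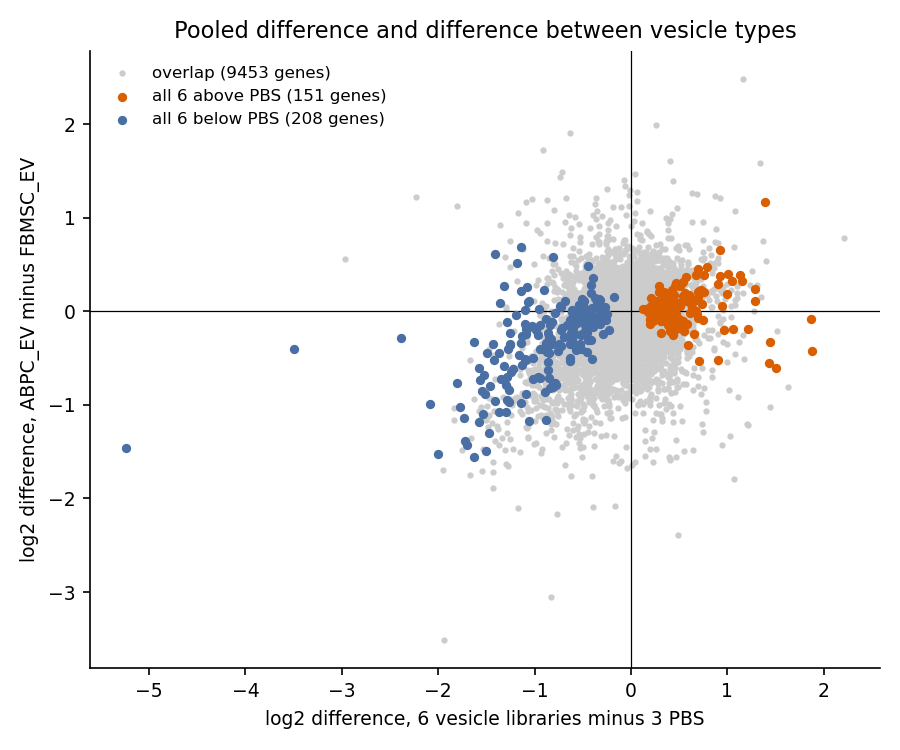
Log2 difference of the 6 vesicle libraries from PBS (horizontal) against the ABPC minus FBMSC difference (vertical) for the 9812 tested genes, 1 point each. Genes above PBS centre on 0.03 vertically, while genes below PBS extend downward, with a vertical median of -0.23.

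The rule is easier to meet with fewer libraries, so its counts rise when any library is left out and say little about that library. Of the 208 genes below PBS, PBS replicate 3 was the PBS library nearest to the vesicles in 125, and FBMSC replicate 3 and replicate 1 were the nearest vesicle libraries in 69 and 60. Without PBS replicate 3 the counts were 536 above and 746 below, without PBS replicate 1 they were 367 and 416, and without PBS replicate 2 they were 340 and 366. Leaving out FBMSC replicate 1 gave 289 and 342, and leaving out ABPC replicate 2 gave 273 and 302. Near the edge of the rule, EIF4EBP3 was just inside, with 3.96 in both its highest PBS and its lowest vesicle library after rounding, and PRRC2B just outside, with 8.92 against 8.85. On the lower side EEF1G was just inside at 140.0 against 139.8, and RPL24 just outside, with 84.5 in both its lowest PBS and its highest vesicle library after rounding.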

How the data were processed

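Total RNA of whole blood was sequenced as paired-end libraries (NEBNext Ultra RNA kit), per the labels' protocols, and the genome build was Mmul_10 per the submitters' processing notes; no source used here names the aligner or counter. The authors deposited 1 table of log2 values of 24371 genes in 9 columns, each matched to a library by its description. From the values, these are log2 of a length-corrected TPM-scale value plus 0.5. Undoing the log2 gave columns that each sum to 1000000. Values that are whole multiples of 1 read per gene allowed reads and gene lengths to be recovered for 21550 of 21551 genes (99.99536%, tolerance 0.001 reads; PRKAR2A not). Total reads were 11.7 to 14.5 M (M, 1000000) per library. Lengths equalled the RefSeq span for 569 of 598 small RNA genes. Symbols were as deposited, and 20451 names were found in the RefSeq table.

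Each library was divided by its median-ratio factor over 13350 genes above 0 in all libraries. Tests used limma 3.58.1 in R 4.3.3 with trend on log2(value + 1), for genes at 1 or more in at least 3 libraries, with no covariate and Benjamini-Hochberg adjustment over all 9812 genes at 0.05; the fit was first tested on simulated data. A log2 difference on this scale understates the change of low genes. Shares per library were compared by exact permutation tests (scipy 1.17.1). Alternatives were the deposited scale, TMM-style scaling, the erythroid list taken out, 0.5 or 5 added before the log2, no filter or a filter at 5, a 3-level group, a replicate block, limma-voom on recovered reads, and each library left out. Named genes were the 12 of lowest p on either side among symbols without overlap and with a median of at least 5 on the higher side, up to 4 members per list without overlap (or the 1 with the smallest p), the 4 per direction with ABPC beyond FBMSC, and HBB, HBA, HBA1 and HBG2. A few genes that the rules name are not reported here. Members, lists and rules were chosen with earlier results of these data known. No coordinates or sequences are given because the reference tables hold another build. Groups shared replicate numbers. Correlations of deviations were -0.254 to 0.289 between same-numbered libraries (over 0.1 in 4 of 9 pairs). Between different numbers they were -0.432 to 0.355 (over 0.1 in 6 of 18). With 3 libraries per group these values cannot decide whether the numbers pair the libraries.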

Additional observations from a re-analysis of the deposited data

Results flagged for a closer look

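Of 77 values checked in the 6 vesicle libraries, 5 had 1 library standing apart, its gap to the nearest other library exceeding 0.625 of the whole range; chance flags about 1 in 20 groups. CEACAM1, a neutrophil adhesion molecule, was at a scaled value of 5.76 in ABPC replicate 2, above the other 5 vesicle libraries. RORA was at 5.43 and highest in ABPC replicate 3. BAG3, a co-chaperone, was lowest in FBMSC replicate 3 at 1.17. WIPI1 was highest in FBMSC replicate 1 at 24.8. HMGB1 was lowest in ABPC replicate 2 at 10.7. CEACAM1, BAG3 and WIPI1 overlapped between vesicle and PBS libraries.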

How the results depend on the processing

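The call of LOC114673003 was kept with TMM-style scaling, with 0.5 added before the log2, on the deposited scale and without PBS replicate 2 or FBMSC replicate 1. It was lost with 5 added before the log2 (adjusted p = 0.0530, with LOC114670758 called in its place), without the filter (0.149), with a filter at 5 (0.0779), with a 3-level group (0.0682), with limma-voom on recovered reads (0.268), with the erythroid list taken out and without each of the other 7 libraries; the cause was not tested. Genes called lower numbered 0 without the filter, with the filter at 5, with the 3-level group, with limma-voom and with the erythroid list taken out, 4 on the deposited scale (HBG2, LOC114670758, PRSS47 and LOC114673003), and 0 to 2 when 1 library was left out. Genes called higher numbered 8107 on the deposited scale, whose all-gene median is 1.06, 5 with the erythroid list taken out (MIR186, LOC114675330, LOC114673615, LOC106997146 and LOC114677306), and 0 to 1 with 1 library left out. With the replicate number as a block 0 genes were called lower, with LOC114673003 at a limma adjusted p of 0.0840, and no other call changed. Whether the numbers pair the libraries could not be decided. Between vesicle types 68 genes were called on the deposited scale, 7 with the erythroid list out and 5 without the filter.

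Genes with no overlap above PBS numbered 5161 on the deposited scale, 1547 with the erythroid list out, 371 without the filter, 50 with the filter at 5, and 162 to 536 with 1 library left out. Those below numbered 3, 45, 301, 134 and 218 to 746 in the same order. Of the 151 and 208 genes, TMM-style scaling kept 151 and 173, and with the erythroid list out 109 and 21 were kept; relative to that setting's median all 151 stayed above and all 200 tested stayed below.

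Relative to all genes, on the deposited scale the ribosomal median was -0.093, and medians changed sign, by more than the spread between vesicle libraries, for eosinophil and basophil (-0.021), plasma cell (0.063), oxidative phosphorylation (0.059), proteasome (0.22), immediate early (0.28), MHC class II (0.21), senescence (0.15), nutrient sensing (0.15), DNA repair (-0.047), cell cycle (-0.22), glycolysis (0.22) and vesicle uptake genes (0.27), with JUND at 0.0036 and RRM2 at -0.19. DNA repair genes were also at -0.054 with the filter at 5. Sign changes of that size with 1 library left out were those of neutrophil granule proteins (-0.93 to 0.52, positive without PBS replicate 2), eosinophil and basophil (-0.014, without PBS replicate 2, to 0.64), DNA repair (-0.047, without PBS replicate 1, to 0.14) and TGF-beta (-0.050, without PBS replicate 3, to 0.12). Counting changes of any size, 13 lists kept their sign under every alternative run and 18 did not. The globin share difference was -5.54 for FBMSC alone and -13.6 for ABPC alone (exact permutation p = 0.1), and -7.70 to -11.0 with 1 library left out. The share outside the erythroid list gave 5.55 and 13.6 (exact permutation p = 0.1), and 7.70 to 11.0. Reads outside the erythroid list, 2.94 to 8.05 M (M, 1000000) per library, limit how well low genes are measured.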

Other observations

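Over all tested genes 1.54% lay above and 2.12% below PBS without overlap, and the counts by annotated gene type, with no test of a difference, were as follows. Of 122 tested snoRNA genes in the RefSeq table, 5 (4.10%) lay above PBS in all 6 vesicle libraries and 2 (1.64%) below. Of 48 microRNA genes 2 (4.17%) lay above. Of 121 long noncoding RNA genes 2 lay above and 2 below. Transcribed pseudogenes lay below PBS in 14 of 135 cases (10.4%) and other pseudogenes in 8 of 73 (11.0%), beside 161 of 8644 protein-coding genes (1.86%). The reads of pseudogenes may be shared with their parent genes.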
